A study of Homo sapiens with 3 samples.

Results

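UAG, also called the amber codon, ended the coding sequence (CDS) of 1147 of the 5438 transcripts compared here by ribosome profiling in HEK293T cells. Members were the transcripts that stood in the tables of all 3 libraries, passed a minimum of mean CDS reads (the least read member had 128.3 and the most read transcript left out 126.7) and had a stretch of at least 18 nt between UAG and the following in-frame stop codon, at least 1 such stop codon in the 3′UTR, and UAG as the normal termination codon (NTC), whatever base came next. Of 1939 UAG transcripts in all 3 tables, 740 had too few CDS reads and 52 more had no stop codon in frame in the 3′UTR. The 1147 members came from 1146 gene symbols, because CD99 was listed for both its X and its Y copy. HEK293T is a human embryonic kidney line that expresses the SV40 large T antigen, and in ribosome profiling the mRNA fragments shielded by ribosomes (RPFs) are sequenced and counted. There were 2 libraries of untreated cells, Untreated A and Untreated B, and 1 library, G418 A, of cells given the aminoglycoside G418 at 500 µg/mL for 24 h. With 1 G418 library, no difference between the treatments had a replicate check and no p-value is given. The study describes the libraries of a treatment as biological replicates.

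The measure is the ribosome readthrough score (RRTS), the RPF density from the NTC to the next in-frame stop codon (3′TC) as a percentage of the RPF density of the CDS. An RRTS of 100% means that reads were as dense past the stop codon as in the CDS, and the pooled RRTS of a group of transcripts is the sum of their readthrough reads over the sum of the reads expected at CDS density. Intervals in brackets are exact Poisson 95% intervals of the read count for RRTS and Wilson 95% intervals for shares of transcripts, and they cover counting error only. Transcripts of 1 library are not replicates of a treatment.

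As background, all 3 stop codons are read in the ribosomal A site by the release factor eRF1, encoded by ETF1, which acts with the GTPase eRF3. Stop codon readthrough occurs when a near-cognate aminoacyl-tRNA is accepted there instead, after which the ribosome translates the 3′UTR until it meets another stop codon in its frame. For UAG, glutamine tRNA is among the near-cognate tRNAs known to be accepted. Aminoglycosides such as G418 bind the decoding centre of the small ribosomal subunit and lower the accuracy with which tRNA is selected. The base after the stop codon is part of the mRNA that eRF1 contacts, and a C at that place is known from reporter studies to favour readthrough.

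The sequences around UAG are shown for the 12 members with the highest RRTS in G418 A among those with at least 30 readthrough reads. The comparison of bases after UAG further below rests on all members, not on these 12. Each window of 30 bases is written 5′ to 3′ from the mRNA strand of hg38 (T for U), opens 15 nt before the stop codon, and has UAG and the base after it in capitals. Coordinates are those of the stop codon itself, which lay in the last exon of each of these 12 transcripts, including the single exon of IMP3, HSPA1B and HSPA1A, with the 3′UTR after it.
LLPH, chr12:66123840-66123842, minus strand: aagggtttggcctggTAGActcttaaaacc
DBNDD2, chr20:45410138-45410140, plus strand: cctggagcctgcagcTAGCagtgggcccct
IMP3, chr15:75639614-75639616, minus strand: ttcgatctggaagccTAGCggatctcccac
SCO1, chr17:10681119-10681121, minus strand: tacagaaaaaagagcTAGCcaaagcagtgt
GRPEL1, chr4:7060862-7060864, minus strand: gtggtgaaggaagctTAGCtgctgttgatg
MMADHC, chr2:149569974-149569976, minus strand: aaattaagtggaaatTAGCagaaatatcca
TMEM14C, chr6:10730664-10730666, plus strand: ttcaacagaccccatTAGCagaagtcatgt
GPN2, chr1:26879677-26879679, minus strand: gaagccatgcagctgTAGCaacaaggtgga
HSPA1B, chr6:31829874-31829876, plus strand: attgaggaggtggatTAGGggcctttgttc
ATL3, chr11:63629319-63629321, minus strand: gataaaaaagctcaaTAGCatcttaacgtg
HSPA1A, chr6:31817680-31817682, plus strand: attgaggaggtagatTAGGggcctttccaa
EAF1, chr3:15439153-15439155, plus strand: agtgacagtgatgacTAGTgctggatcttt

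Of these 12 transcripts, 8 had C after UAG, and in 4 (DBNDD2, MMADHC, TMEM14C and GPN2) the codon after UAG was CAA or CAG. C followed UAG in 322 of all 1147 members (28.1%) and in 36 of the 109 with at least 30 readthrough reads (33%). CAA or CAG followed UAG in 57 of 1108 members matched to GENCODE v44 (5.14%) and in 8 of the 106 matched among those 109. For contrast, the windows below belong to the 8 members with no readthrough read in G418 A and the most reads expected, among those that share their 3′UTR start with the canonical transcript of their gene as annotated by Ensembl. They were chosen after their values were seen. None of them had C after UAG, whereas C followed UAG in 13 of all 53 members with no readthrough read in G418 A and at least 20 expected (24.5%).
ALG5, chr13:36949942-36949944, minus strand: actcggaaaatgaatTAGGttgtttgcagt
EPS15L1, chr19:16355705-16355707, minus strand: gacatgcctgccgccTAGGcgagggccgtg
SCAMP2, chr15:74845083-74845085, minus strand: gccttccaggggaatTAGTcctcctctctt
PGK1, chrX:78125828-78125830, plus strand: gctctcagcaatattTAGTactttcctgcc
CMC1, chr3:28319627-28319629, plus strand: cttccaacaagcatgTAGGcagatactcaa
ACTA1, chr1:229431499-229431501, minus strand: caccgcaaatgcttcTAGAcacactccacc
MAT2B, chr5:163518361-163518363, plus strand: caaacggtctttcatTAGTttatttgtgtt
ZNF428, chr19:43607617-43607619, minus strand: gcccggggtgaggtgTAGGcagagccccca

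The pooled RRTS of the UAG transcripts was 20.1% (19.7 to 20.4%) with G418, against 1.24% (1.14 to 1.33%) and 1.01% (0.948 to 1.08%) in the untreated libraries A and B. These values rest, for Untreated A, Untreated B and G418 A in turn, on 658, 915 and 13908 readthrough reads, at depths of 5857230, 9477972 and 7216039 reads assigned to transcripts. The G418 value was 17.8 times the untreated mean of 1.12% ± 0.157 (SD, n = 2), while the untreated libraries differed from each other 1.22-fold. Over all 5438 transcripts the pooled RRTS was 1.61%, 1.27% and 21.8%.

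Transcript by transcript, the members were sparse in untreated cells. At least 1 readthrough read was found on 217 of 1147 (18.9%, 16.8 to 21.3%) in Untreated A and on 217 of 1147 (18.9%, 16.8 to 21.3%) in Untreated B, beside 23.8% and 22.1% of all transcripts. In G418 A it was found on 852 of 1147 (74.3%, 71.7 to 76.7%), beside 75.9% of all transcripts. The 2 untreated libraries shared 105 of these transcripts, 48.4% of either library's 217, and 102 of the 105 had reads in G418 A too. Neither untreated library had a read on 818 members, of which 553 had reads in G418 A and 265 had none anywhere. The median RRTS was 16.7% in G418 A (interquartile range 0 to 36.5%), beside 18.6% for all transcripts, and 0 in either untreated library. RRTS was higher in G418 A than in both untreated libraries for 818 of 1147 (71.3%, 68.6 to 73.9%), beside 72.0%, and lower than in at least 1 untreated library for 64.

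High densities were less frequent than over all transcripts. An RRTS of at least 50% in G418 A was seen for 187 of 1147 (16.3%, 14.3 to 18.6%), beside 21.7% of all transcripts, and an RRTS above 100% for 50 of 1147 (4.36%, 3.32 to 5.7%), beside 7.36%. Most of the latter came from transcripts with few expected reads, and only 3 of the 50 had at least 20 reads expected in G418 A. Members with at least 20 expected reads numbered 567, and their median RRTS was 18.1%. The 100 members with the most readthrough reads held 56.3% of them and the top 10 held 16.8%. At the edge of the read minimum, TMEM246, just inside with a mean of 128.3 CDS reads, had an RRTS of 58.2%, 0 and 52%, and FBXO17, just outside with 126.7, had 0, 0 and 18.6%.

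**Figure D1:**
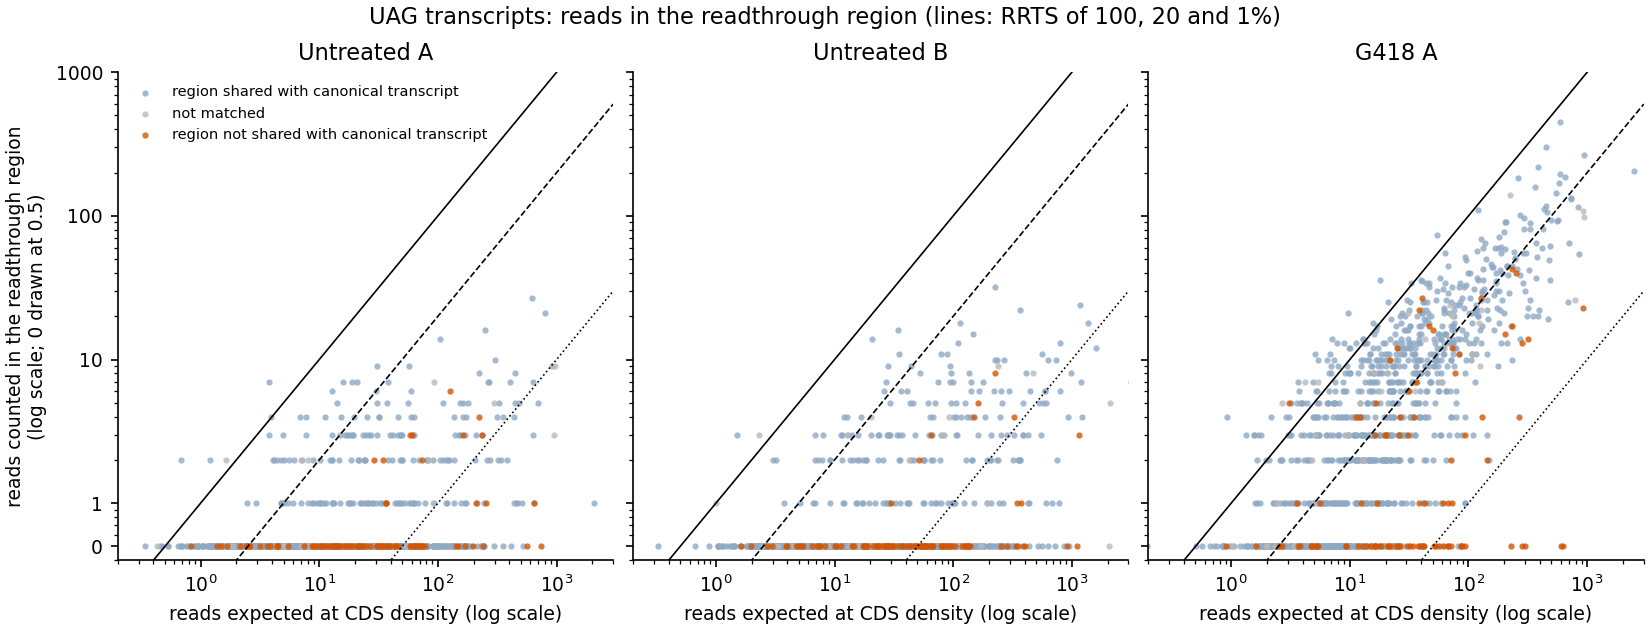
Reads counted in the readthrough region (y, log scale, 0 drawn at 0.5) against reads expected there at CDS density (x, log scale) for each UAG transcript in each library, with lines at an RRTS of 100, 20 and 1%. In G418 A transcripts scatter around the 20% line (pooled RRTS 20.1%), and transcripts whose region is not that of the canonical transcript (orange) are frequent among those at 0.

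The highest RRTS in G418 A among members with at least 30 readthrough reads belonged to LLPH, which encodes a small nuclear protein. With the libraries in the order Untreated A, Untreated B, G418 A, as for each gene from here on, its RRTS was 0%, 0% and 201%. The value with G418 came from 36 reads against 17.9 expected (141 to 278%), so that the lower bound lay above the CDS density. DBNDD2, a dysbindin domain protein, followed with 0%, 0% and 135% (106 to 170.04% in G418 A, 74 reads against 54.6 expected). Neither gene had a readthrough read in untreated cells. Next came IMP3, a component of the U3 small nucleolar ribonucleoprotein that processes ribosomal RNA, with 0%, 3.57% and 104%.

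The next 4 places were held by SCO1, GRPEL1, MMADHC and TMEM14C. SCO1, a copper chaperone of cytochrome c oxidase, had an RRTS of 0%, 2.78% and 90.7% (74.6 to 109% in G418 A). GRPEL1, the nucleotide exchange factor of mitochondrial Hsp70, had 0%, 0% and 89.6%, and MMADHC, which acts in cobalamin metabolism, had 4.92%, 1.54% and 87.1%. TMEM14C, a mitochondrial protein needed for haem synthesis, had 18.3%, 4.81% and 85.7%, with untreated intervals of 7.35 to 37.7% and 0.992 to 14.1% that overlapped those of MMADHC (0.596 to 17.8% and 0.0391 to 8.61%). All 4 had C after UAG. GPN2, a GTPase that acts in RNA polymerase assembly, had 0%, 0% and 78.1%, and ATL3, an atlastin GTPase of the endoplasmic reticulum, had 7.59%, 0% and 72.8%. EAF1, a partner of the elongation factor ELL, was the highest of the members with U after UAG and at least 30 readthrough reads, with 0%, 0% and 69.5%.

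HSPA1B and HSPA1A, which encode the inducible Hsp70, were the only genes of the 12 with G after UAG. HSPA1B had the most readthrough reads of all members, 452 in G418 A against 7 and 11 in the untreated libraries, and an RRTS of 2.64%, 1.96% and 76.7% (69.8 to 84.1% in G418 A). HSPA1A had 1.71%, 2.39% and 69.5%. Their CDSs are nearly identical, so that reads can be credited to the wrong copy and both values are uncertain. PSMA4, an alpha subunit of the 20S proteasome, had the second most readthrough reads, 301 in G418 A against 0 and 1, and an RRTS of 0%, 0.164% and 67.4% (60.03 to 75.5% in G418 A). PCNA, the sliding clamp of DNA polymerases, had 267 readthrough reads and an RRTS of 2.62%, 1.33% and 28.6%. MARCKSL1, an actin-binding protein, had 219 readthrough reads and an RRTS of 0.626%, 1.6% and 56.3%. The intervals of PSMA4 and MARCKSL1 (49.1 to 64.3%) lay above that of PCNA (25.3 to 32.2%) in G418 A. Across the 12 highest transcripts, CDS length ran from 339 to 1926 nt and region length from 27 to 210 nt.

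In untreated cells, 40 members had at least 3 readthrough reads in each library. The highest mean belonged to PAWR, a pro-apoptotic protein, with an RRTS of 37.1%, 46.9% and 66.4%. The untreated mean of PAWR was 42% ± 6.95 (SD, n = 2), and its intervals overlapped in all 3 libraries (14.9 to 76.5%, 26.8 to 76.2% and 39.4 to 105%). MCL1, an anti-apoptotic member of the BCL2 family with a region of 24 nt, had 44.5%, 23.1% and 114% from 7, 6 and 18 reads, and EID2, an inhibitor of EP300-dependent differentiation, had 12.5%, 20.2% and 51.4%. ZNF302, a zinc finger protein with a readthrough region of 447 nt, had 15.9%, 11.9% and 20.9%, with intervals that overlapped in all 3 libraries. DYNLL2, a dynein light chain, had 13.5%, 14.3% and 39.4%, and the G418 interval of 30.7 to 49.6% lay above those of Untreated A (7.37 to 22.6%) and Untreated B (9.77 to 20.2%). HSPH1, an Hsp110 chaperone, had 12.6%, 14.7% and 37.7%.

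All 40 of these 40 members had a higher RRTS in G418 A than in either untreated library. Their median RRTS in G418 A was 27%, and 31 of them were above the median of all members. Of the 40, 17 had A after UAG, 7 C (17.5%), 11 G and 5 U. Among all 1147 members 343 had A, 322 C (28.1%), 319 G and 163 U. Their median CDS density, 342 RPKM in G418 A against 40.7 RPKM for all members, reflects the minimum of reads that chose them.

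**Figure D2:**
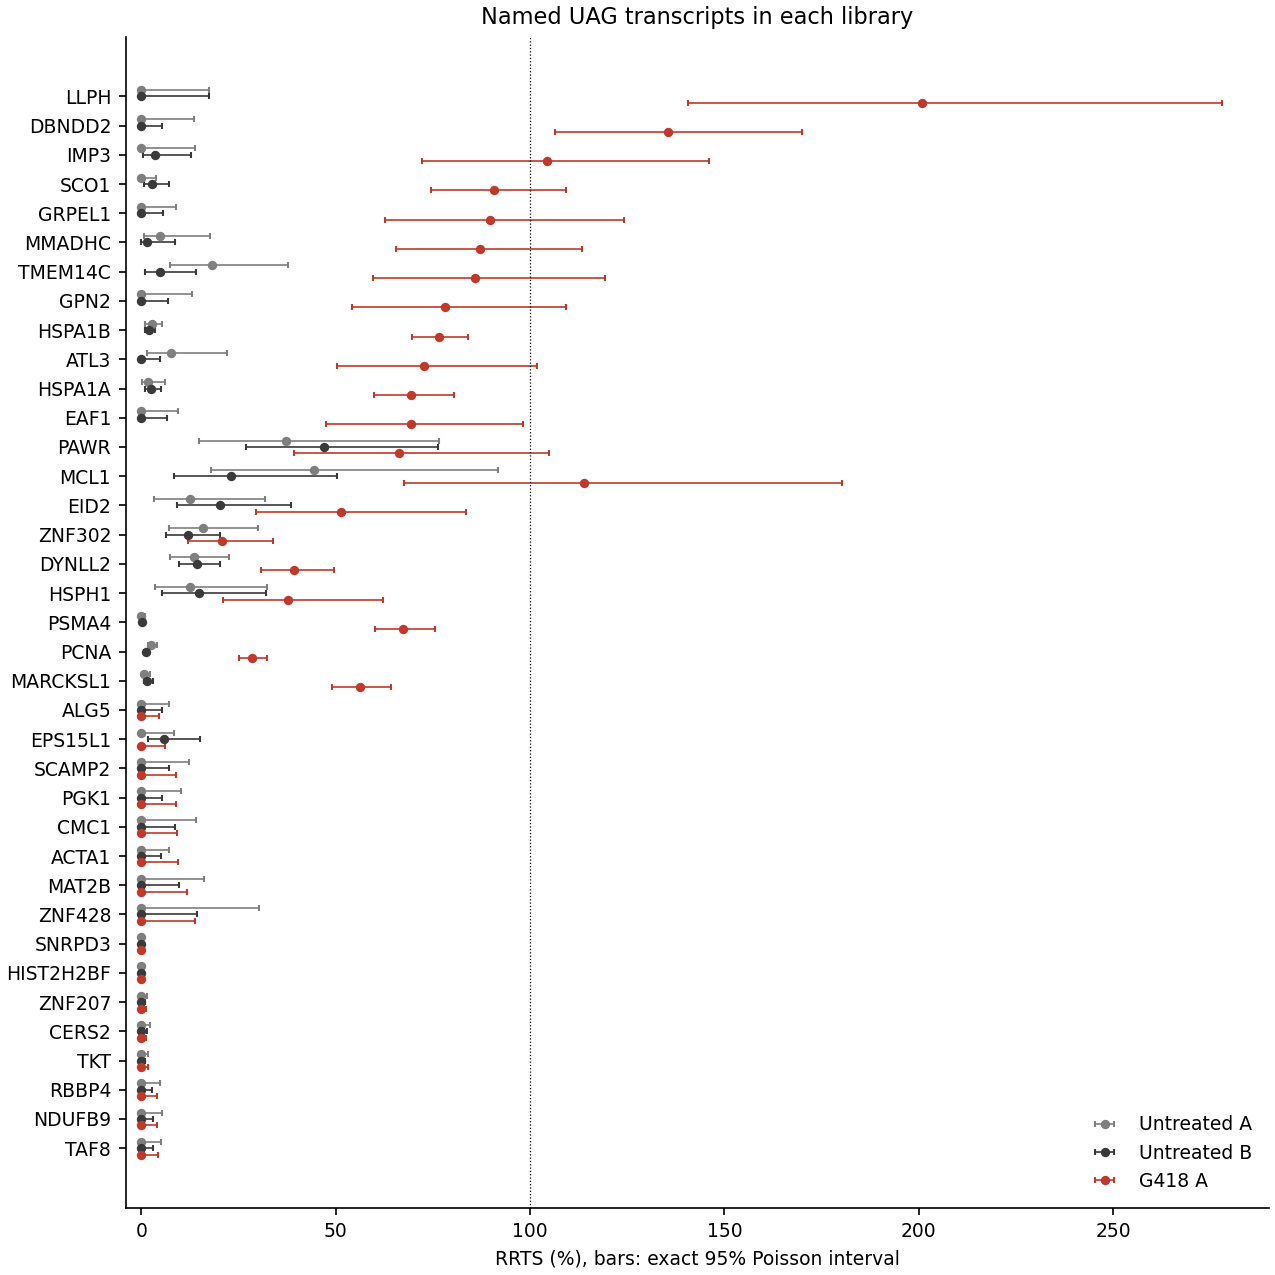
RRTS (x, %) with its exact 95% Poisson interval in Untreated A (light grey), Untreated B (dark grey) and G418 A (red) for the transcripts named by value, from the 12 highest in G418 A at the top through the highest in untreated cells and the most abundant to the lowest. LLPH lies at 201% in G418 A, PAWR at 66.4% with untreated intervals that overlap it, and the transcripts from ALG5 down at 0 in G418 A.

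At the other end, 53 of the 567 members with at least 20 expected reads had no readthrough read in G418 A. The 8 with the most expected reads were SNRPD3, a core Sm protein of the spliceosome (628 reads expected in G418 A), the histone gene HIST2H2BF (606), ZNF207, which acts at kinetochores (300), the ceramide synthase CERS2 (282), the transketolase TKT (226), the histone chaperone RBBP4 (93.7), the complex I subunit NDUFB9 (88.5) and TAF8, a subunit of TFIID (86.9). None of them had a readthrough read in an untreated library either. Their upper bounds in G418 A ran from 0.587% for SNRPD3 to 4.24% for TAF8. UAG lay upstream of the last exon in SNRPD3 (exon 4 of 5), ZNF207 (exon 13 of 14) and TKT (exon 14 of 15) and in the last exon of the other 5.

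These 8 transcripts have in common that their readthrough region is not that of the canonical transcript of the gene. The authors kept the transcript with the most 3′ stop codon of each gene, and 1108 of the 1147 members could be matched to GENCODE v44 on the same genome build. The region between UAG and the 3′TC had the sequence of the Ensembl canonical transcript for 1013 of them and another sequence for 95. With at least 20 expected reads, 29 of 63 transcripts with another sequence had no read in G418 A (46%, 34.3 to 58.2%), against 22 of 487 that shared it (4.52%, 3 to 6.74%). Over all stop codons the counts were 111 of 247 (44.9%) and 96 of 2254 (4.26%), close to those of the UAG members. The pooled RRTS was 0.531%, 0.312% and 5.23% (4.73 to 5.76%) for the former and 1.34%, 1.14% and 22.4% (22 to 22.8%) for the latter. The same split over all stop codons gave 5.59% and 25.2% in G418 A. Which transcript of these genes HEK293T cells express was not tested. SDHC, a complex II subunit, was an exception with another region than the canonical one and an RRTS of 0%, 0% and 57.9% (36.3 to 87.7% in G418 A).

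Among members that shared the canonical region, 22 had no readthrough read in G418 A with at least 20 expected. ALG5, a glucosyltransferase of the glycosylation pathway, had 82 reads expected and an upper bound of 4.5%, with no read in untreated cells. EPS15L1, an endocytic adaptor, had 0%, 5.92% and 0%, and its 4 reads in Untreated B were not matched in G418 A at 59.98 expected. SCAMP2, a secretory carrier membrane protein, PGK1, a glycolytic enzyme, CMC1, an assembly factor of cytochrome c oxidase, MAT2B, a regulatory subunit of methionine adenosyltransferase, and ZNF428 had no read in any library and upper bounds of 8.85, 8.99, 9.27, 11.7 and 13.7% in G418 A. ACTA1, the skeletal muscle actin, also had none, but its CDS is close to those of the other actins and CDS reads can be credited to it wrongly. PGK1 had a region at the minimum of 18 nt despite 4175 CDS reads in G418 A. Of the 22, 4 had C after UAG (18.2%), 5 A, 8 G and 5 U, beside C in 27.9% of all 567 members with at least 20 expected reads.

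The base after UAG was A in 343 members, C in 322, G in 319 and U in 163. With G418 the pooled RRTS was 26.4% (25.6 to 27.2%) for UAGC, 19.9% (19.3 to 20.5%) for UAGA, 18.6% (18.1 to 19.2%) for UAGG and 13.7% (13 to 14.4%) for UAGU. The intervals did not overlap between any of the 4 bases. The medians kept UAGC highest and UAGU lowest, at 20.1% for C, 17.7% for A, 13.4% for G and 12.1% for U. The shares of transcripts with a read in G418 A were 78%, 77.3%, 71.5% and 66.3% in the same order.

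Single transcripts overlapped widely between the bases. A UAGC transcript had the higher RRTS in G418 A than a UAGG transcript in 0.588 of pairs (ties counted equally, 0.5 meaning no difference), than a UAGU transcript in 0.579 and than a UAGA transcript in 0.532. With at least 20 expected reads these shares were 0.608, 0.617 and 0.579. Among members with the canonical region the pooled RRTS was 27.8% for C, 21.3% for A, 22% for G and 16.2% for U, so that the interval of G (21.3 to 22.7%) then overlapped that of A. In the pooled value C was also the highest base within each class of region length, although in regions under 60 nt UAGC exceeded UAGA in 0.478 of pairs of transcripts. The intervals of C and G overlapped in regions of 240 nt or more, at 14.3% (12.8 to 15.8%) against 13.3% (12.1 to 14.5%).

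In untreated cells the order of the bases differed between the libraries, and the intervals of UAGA and UAGC overlapped in each. UAGA was highest in Untreated A, at 1.57% (1.39 to 1.77%), with UAGC at 1.34% (1.13 to 1.57%), UAGG at 1.03% (0.891 to 1.19%) and UAGU at 0.812% (0.621 to 1.04%). In Untreated B the values were 1.17% (1.02 to 1.33%) for UAGC, 1.1% (0.981 to 1.23%) for UAGA, 1.09% (0.916 to 1.3%) for UAGU and 0.816% (0.72 to 0.921%) for UAGG. UAGU was lowest in Untreated A and close to UAGA in Untreated B, so that the place of U among the bases did not hold between the untreated libraries. The G418 value was 21 times the untreated mean for UAGC, 20.1 times for UAGG, 14.9 times for UAGA and 14.4 times for UAGU.

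**Figure D3:**
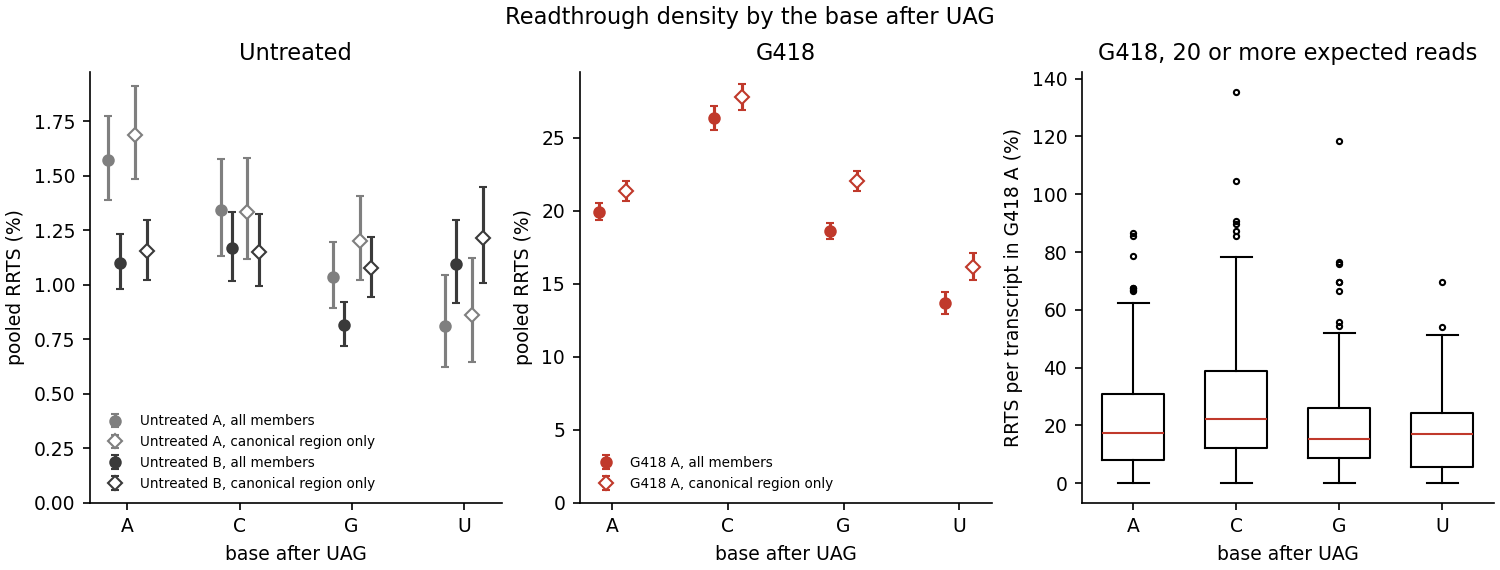
Pooled RRTS (%) with exact 95% Poisson intervals by the base after UAG in the untreated libraries and in G418 A, for all members (filled) and for members with the canonical region (open), and RRTS per transcript in G418 A for members with at least 20 expected reads (box, quartiles, with the median as a line). C is highest in G418 A at 26.4%, and the boxes of the 4 bases overlap.

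Among UAGC transcripts, those with CAA or CAG as the codon after UAG were looked at apart, as these glutamine codons follow UAG at known readthrough sites. The codon after UAG was CAA or CAG in 57 of 1108 matched members (5.14%) and in 3.44% of all 5258 matched transcripts. Their pooled RRTS in G418 A was 30.3% (28 to 32.7%), against 25.3% (24.4 to 26.2%) for the other UAGC transcripts. With at least 20 expected reads the medians were 33.7% (n = 32) and 20.8% (n = 123). The 32 transcripts ranged from 0 for PPM1G, MTAP, NPC2 and PSRC1 to 135% for DBNDD2, and SRPK2, WRAP73 and SLU7 lay between, at 70.2, 54.4 and 54%. Of the 4 at 0, MTAP, NPC2 and PSRC1 did not share the canonical region. CAA before UAG was found in 11 members, too few to describe beyond their pooled RRTS of 9.52% (7.51 to 11.9%) in G418 A.

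Other positions around UAG were read from the matched sequences, with UAG as positions 1 to 3. At position 5 the pooled G418 RRTS was 23.9% for A, 20.5% for U, 19.9% for G and 17.8% for C. At position 8 it was 25.6% for A, 21.7% for C, 21% for U and 15.4% for G, and at position 6 it was lowest for C, at 16.3%. For the last base before UAG it was 25.4% for U, 22.8% for A, 18.9% for C and 17.8% for G. The lowest of the 4 values in untreated cells was also that of G for the base before UAG, at 0.964% and 0.778%, and the highest that of U, at 1.77% and 1.34%. A at position 8 was highest in both untreated libraries too, at 1.86% and 1.29%. These positions were looked at together and their bases vary with GC content, so each difference is a description.

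GC content of the first 60 nt after UAG (or of the whole 3′UTR where it was shorter) went with lower RRTS. From the lowest to the highest quartile of GC content the pooled RRTS in G418 A was 22.9%, 25.2%, 18.5% and 15.7%, in Untreated A 2%, 1.51%, 0.829% and 0.666%, and in Untreated B 1.63%, 1.23%, 0.623% and 0.739%. The lowest quartile held 13.8 to 38.3% GC and the highest 63.3 to 90%. Across the 550 matched members with at least 20 expected reads, Spearman's rho between this GC content and RRTS in G418 A was -0.217, all points sharing 1 library. Region length rose along the same quartiles, with medians of 48, 60, 75 and 108 nt, and its part in the result was not tested.

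The readthrough region of the members was 18 to 951 nt long with a median of 69 nt, the 3′TC included, against a median of 66 nt over all transcripts. In regions of 240 nt or more the pooled RRTS in G418 A was 11.8% (11.2 to 12.3%), below the 24.5% (23.6 to 25.4%), 21.2% (20.7 to 21.8%) and 21.7% (21.1 to 22.4%) of regions under 60, of 60 to under 120 and of 120 to under 240 nt. The classes held 485, 376, 213 and 73 transcripts from the shortest to the longest. The medians were 15, 18.5, 18.1 and 12% in that order, so that the shortest regions were highest in the pooled value and not in the median. With at least 20 expected reads the medians were 19.4, 19.2, 18.5 and 11.7%. Short regions have few expected reads (a median of 9.11 in G418 A against 93.9 for the longest), and the share of transcripts with a read was 63.5, 77.7, 86.4 and 93.2% in G418 A.

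Untreated cells had the same order at the ends. The pooled RRTS of the shortest regions was 2.85% (2.5 to 3.22%) in Untreated A and 1.68% (1.47 to 1.9%) in Untreated B, against 0.645% (0.495 to 0.827%) and 0.756% (0.631 to 0.899%) for the longest, and the untreated libraries differed most in the shortest class. The 3 longest regions with at least 20 expected reads were those of TTYH3, a chloride channel protein (951 nt), UBE2Z, a ubiquitin-conjugating enzyme (618 nt), and ATG9A, a lipid scramblase of autophagy (600 nt). TTYH3 had an RRTS of 0.839%, 0% and 5.09%, UBE2Z 0%, 0% and 7.18% and ATG9A 0%, 0% and 6.93%, all 3 with A after UAG, for which the pooled value in G418 A was 19.9%. Across the 567 members with at least 20 expected reads, Spearman's rho between region length and RRTS in G418 A was -0.0591, all points sharing 1 library.

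CDS length ran from 165 to 18921 nt with a median of 1557 nt, against 1488 nt over all transcripts. Pooled over CDSs under 600 nt, RRTS in G418 A was 16% (15.5 to 16.5%), against 22.3% (21.6 to 23%) for 600 to under 1200 nt, 23.5% (22.7 to 24.3%) for 1200 to under 2000 nt and 21.2% (20.3 to 22.2%) for 2000 nt or more. The medians did not follow this order, with 17.4, 17.8, 17.1 and 14.3% over all members and 17.3, 19, 18.4 and 17.4% with at least 20 expected reads. The CDSs under 600 nt included SNRPD3, HIST2H2BF and RPL37, with 628, 606 and 914 expected reads and low RRTS. Over members with the canonical region this class was still the lowest, at a pooled 19% (18.4 to 19.6%). The longer classes then had 24.2, 25.5 and 21.8% in turn. The order turned with region length. For CDSs under 600 nt against 1200 to under 2000 nt the pooled RRTS was 14.3% against 32.7% in regions of 60 to under 120 nt and 21.7% against 19.8% in regions of 120 to under 240 nt. In the untreated libraries all 4 classes lay between 0.95 and 1.41%. Spearman's rho between CDS length and RRTS in G418 A was -0.00501 and that between CDS density and RRTS -0.0237, over the 567 members with enough expected reads.

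**Figure D4:**
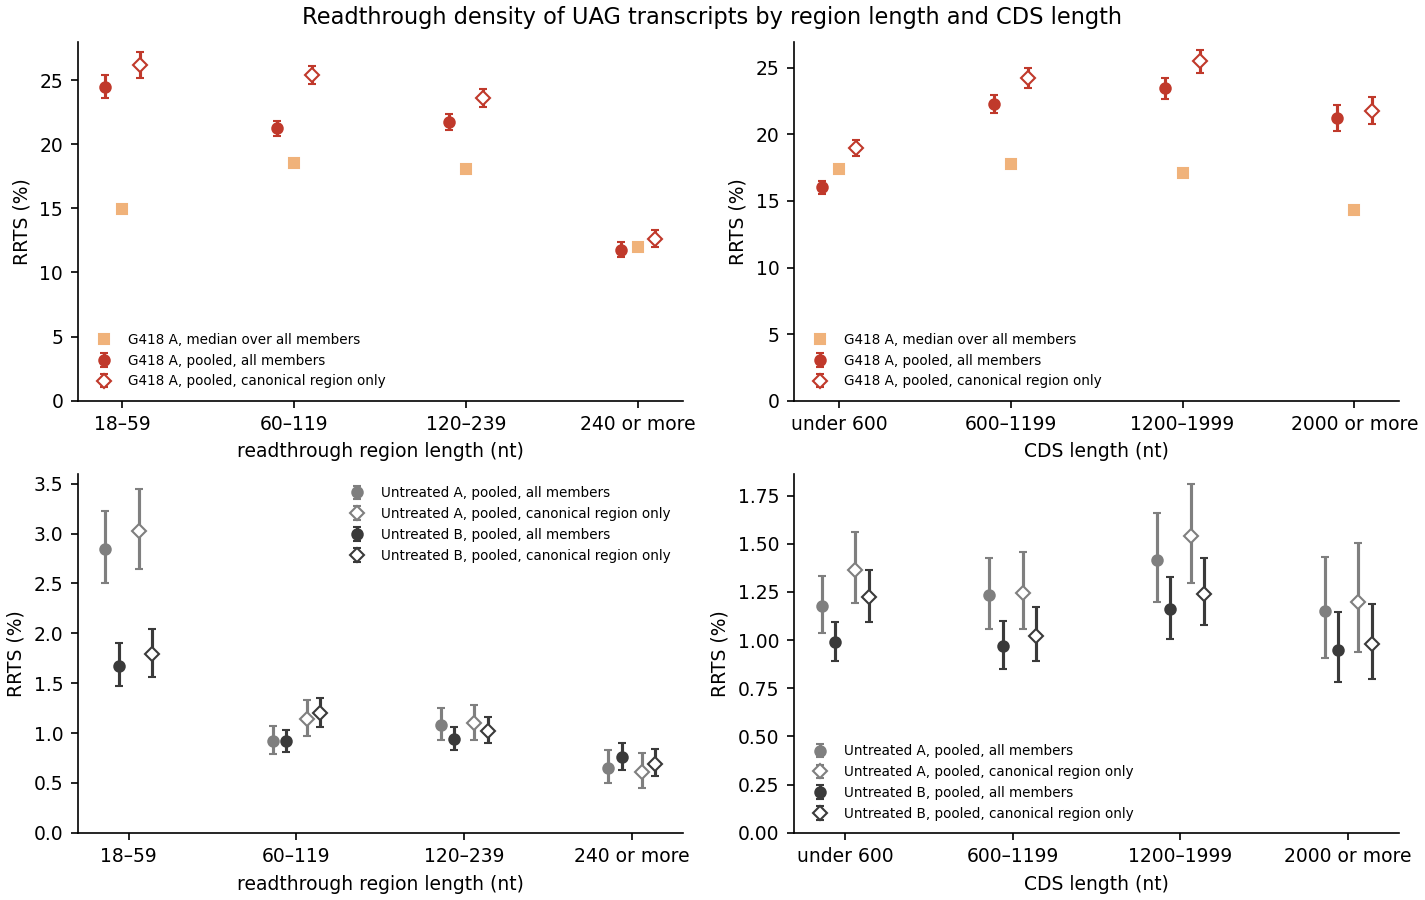
RRTS (%) of UAG transcripts by class of readthrough region length (left) and CDS length (right), in G418 A (top) and the untreated libraries (bottom). Circles and diamonds are pooled values with exact 95% Poisson intervals over all members and over members with the canonical region, squares are medians, and the class of 240 nt or more is lowest in G418 A at 11.8%.

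The features behind high and low readthrough density were then set side by side for the 487 members with the canonical region and at least 20 expected reads, divided into quartiles by their RRTS in G418 A. The quartiles were chosen on that library, so their G418 values are a description. The median RRTS in G418 A was 5.59%, 15%, 24.8% and 45.4% from the lowest to the highest quartile. The untreated libraries, which did not enter the choice, followed the same order. The pooled RRTS was 0.588%, 0.9%, 1.21% and 2.71% in Untreated A and 0.56%, 0.911%, 1.03% and 2.38% in Untreated B. Other stop codons divided in the same way gave 0.771% and 4.27% in Untreated A and 0.786% and 2.73% in Untreated B for the lowest and the highest quartile.

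C after UAG was found in 23 of 122 transcripts of the lowest quartile (18.9%), 30 of 122 of the second, 35 of 121 of the third and 51 of 122 of the highest (41.8%). G after UAG was found in 32%, 37.7%, 28.1% and 23% from the lowest to the highest quartile. A was found in 34.4% of the lowest and 26.2% of the highest, and U in 14.8% and 9.02%. The median GC content of the first 60 nt was 56.7% in the lowest and 46.7% in the highest quartile. Median region length was 100.5, 109.5, 99 and 87 nt, and median CDS length 1124, 1189.5, 1200 and 1018 nt, both with interquartile ranges that overlapped in all quartiles. The median 3′UTR length was 877 nt in the lowest and 1356 nt in the highest quartile. Median CDS density at the ends was 81.4 and 82.8 RPKM in G418 A.

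**Figure D5:**
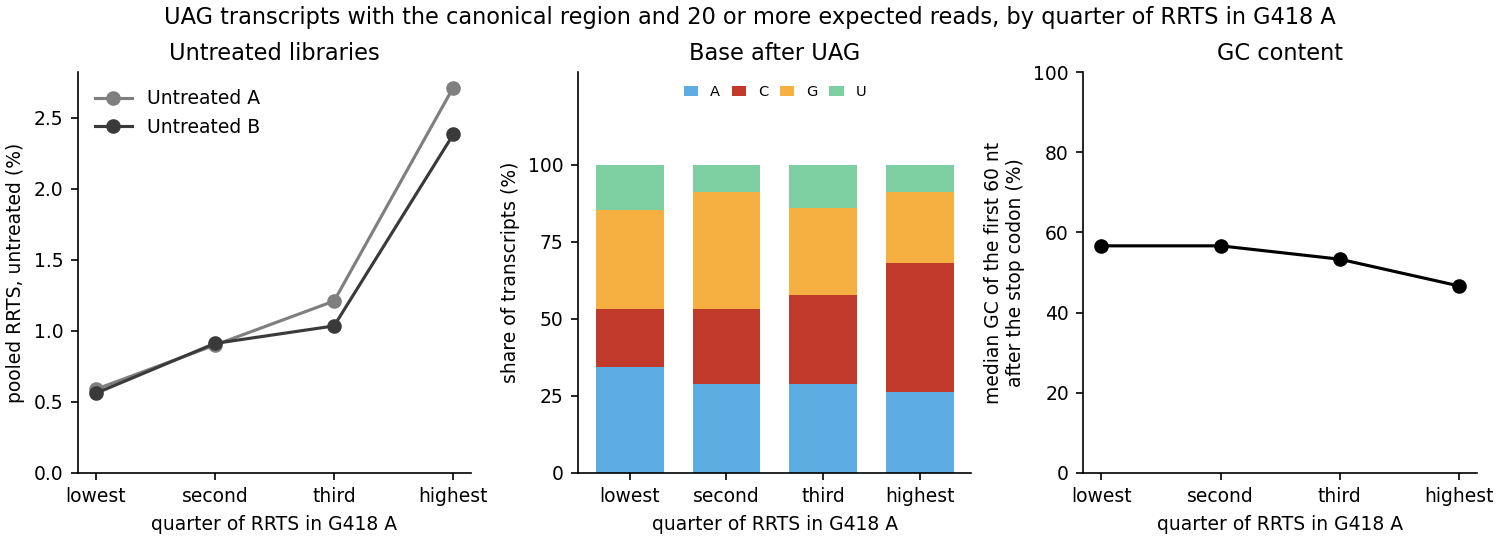
UAG transcripts with the canonical region and at least 20 expected reads, by quartile of RRTS in G418 A (x): pooled RRTS in the untreated libraries (%), share of each base after UAG (%) and median GC content of the first 60 nt after the stop codon (%). Untreated pooled RRTS goes from 0.588 to 2.71% in Untreated A, the share of C from 18.9 to 41.8%, and GC content from 56.7 to 46.7%.

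The members were then grouped into functional lists by gene symbol, and beside the highest and lowest of each list some genes were named after their values were seen. The lists also took in genes with a like symbol, such as RPL7L1 and RPL22L1 with the ribosomal proteins and EIF2AK2 with the translation factors. For comparison with the counts below, UAG ended 1147 of all 5438 transcripts, and 74.3% of all members had a read in G418 A. UAG ended 14 of 46 chaperone and co-chaperone transcripts, of which 11 had reads in G418 A. The median RRTS of these 14 was 26%, against 16.7% for all members and 16.2% for the list with other stop codons. The highest UAG member of the list with at least 10 expected reads was the Hsp40 co-chaperone DNAJB1. It had 0%, 13.9% and 115% in Untreated A, Untreated B and G418 A, though from 13 reads (61.3 to 197%). BAG2, a co-chaperone of Hsp70, had 48.9% and DNAJB6 13.7%, while CCT2, a subunit of the TRiC chaperonin whose region was not canonical, had 1.49% and DNAJA3, also with another region, had 0.

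Cytosolic ribosomal proteins had UAG in 8 of 50 transcripts, with a median RRTS of 16.6%, against 8.23% for the list with other stop codons. All 8 UAG members had at least 20 reads expected in G418 A and all 8 had reads there, beside 514 of the 567 members with that many expected. In order they were RPL27 (3.27%, 1.95% and 43.5%), RPL29 (43.2%), RPL22L1 (37.8%), RPS2 (26.9%), RPS19 (6.38%), RPS15A (5.77%), RPL7L1 (4.57%) and RPL37 (0.154%, 0.263% and 2.52%), the last 2 with another region than the canonical one. The intervals of RPL27 (37 to 50.8%) and RPS19 (4.79 to 8.33%), both with A after UAG, were far apart. Mitochondrial ribosomal proteins had UAG in 11 of 47, from 13.1% for MRPS33 to 53.4% for MRPS34 in G418 A (median 23.2%). Subunits of oxidative phosphorylation had UAG in 8 of 54 (median 12.4%), with the most reads on UQCR10 of complex III, at 0.982%, 0.75% and 17.9%.

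Among translation factors, 6 of 49 had UAG, and ETF1, which encodes eRF1 itself, was one of them. ETF1 had 2, 0 and 34 readthrough reads and an RRTS of 1.92%, 0% and 19.9% (13.8 to 27.8% in G418 A), near the pooled value of all members. ABCE1, which recycles ribosomes after termination, had 19.9%, 2.38% and 59%, with a wide gap between the untreated libraries. EEF2, the translocation factor, had 0.721%, 0.33% and 13.9%, and EIF2S3B, a retrocopy of the gene for an eIF2 subunit whose reads can come from its parent gene, had 0. Aminoacyl-tRNA synthetases had UAG in 7 of 28 (median 22.9%), from 0 reads for YARS in G418 A, where Untreated B had 3, to 0%, 0% and 71.2% for the mitochondrial MARS2. Proteasome subunits had UAG in 3 of 25, PSMA4 above, PSMD13 at 17.4% and PSMD11, with another region than the canonical one, at 4.41%.

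Splicing factors had UAG in 12 of 61 with a median of 11.5% in G418 A, against 28.6% for the list with other stop codons. Chaperones and cytosolic ribosomal proteins, above, went the other way. Of the 12, 0 reached 50%, beside 16.3% of all members, and 3 did not share the canonical region. SNRPD3 and SNRPF, which had 0 reads in G418 A, were among these 3. LSM7 of the U6 snRNP was highest, with 0%, 1.05% and 29.4%, and PRPF19, the ubiquitin ligase of the spliceosome, was at 4.08% (2.46 to 6.37%) with the canonical region. Ubiquitin conjugation and removal had UAG in 11 of 58 (median 10.5%), with at least 10 expected reads from UBE2S at 2.42% to the deubiquitinase USP1 at 16%, 5.57% and 78.5%. DNA replication genes had UAG in 7 of 35 (median 28.6%), among them GINS2 of the replicative helicase at 1.62%, 0% and 34.5% and CDC45 at 0 in G418 A with 19.2 expected reads. Solute carriers (20 of 73, median 13%) with at least 10 expected reads ranged from SLC6A15 at 0 to SLC25A13, the mitochondrial aspartate and glutamate carrier, at 94.5%. Zinc finger ZNF genes (21 of 71, median 10.5%) had few expected reads. Of the 21, 12 had a read in G418 A and 6 reached 50%, beside 74.3% and 16.3% of all members, and the median of the list with other stop codons was 24%. Small GTPases had UAG in 3 of 47, with RAB1B at 27.7% and RAB2A, whose region was not canonical, at 10.5%. Among replication-dependent histones (3 of 16), HIST2H4A and HIST2H4B, which have near-identical sequences, had 11.7% and 10.5%.

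Past the 3′TC the density dropped. In the 1092 members with at least 30 nt of 3′UTR after it, the density of the remaining 3′UTR was 0.211% and 0.168% of that of the CDS in the untreated libraries and 0.955% (0.935 to 0.975%) with G418. The same transcripts had 1.19%, 0.989% and 20.6% before it. Divided by the value before it, the density after it was 0.177, 0.17 and 0.0463, and over all stop codons 0.113, 0.127 and 0.0392. The 3′UTRs of the members held a median of 15 in-frame stop codons. These ratios thus cover all later stop codons and do not measure passage of the 3′TC. The deposited 3′UTR lengths used here appear to leave out 6 nt, as RPS19 has 33 nt against a region of 39 nt. The remaining 3′UTR may thus have been taken as too short. The study used 30 nt windows without further in-frame stop codons. With G418 it found more density kept past 3′TCs than past NTCs. By the identity of the 3′TC, the density after it in G418 A was 0.708% of the CDS for UAA, 1.04% for UAG and 1.09% for UGA, and the interval of UAA (0.677 to 0.741%) lay below those of both others. The density before it was 21%, 23% and 20.01%.

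Set beside the other stop codons in G418 A, UAG lay between UGA and UAA. Within regions under 60 nt the pooled RRTS was 24.5% (23.6 to 25.4%) for UAG, 40.8% (39.98 to 41.5%) for UGA and 20.8% (20.2 to 21.4%) for UAA. In regions of 120 to under 240 nt it was 21.7% (21.1 to 22.4%), 26.8% (26.4 to 27.3%) and 9.91% (9.56 to 10.3%), and in regions of 240 nt or more 11.8%, 23.7% and 3.72%. The order held in all 4 classes of region length. A UAG transcript had the higher RRTS than a transcript with another stop codon in 0.467 and 0.477 of pairs in the untreated libraries and 0.462 with G418. In untreated cells the intervals of UAG and UAA overlapped when all region lengths were pooled, with 1.24% (1.14 to 1.33%) and 1.2% (1.13 to 1.27%) in Untreated A and 1.01% (0.948 to 1.08%) and 1.02% (0.971 to 1.07%) in Untreated B. Over transcripts with the canonical region the untreated mean was 1.24% ± 0.147 for UAG and 1.42% ± 0.137 for UAA (SD, n = 2). In its deeper libraries the study found readthrough of UAA more likely than of UAG in untreated cells. Within classes of region length UAG and UAA differed in both directions. UAG was lower than UAA in regions of 60 to under 120 nt, at 0.923% (0.791 to 1.07%) and 0.917% (0.814 to 1.03%) against 1.63% (1.5 to 1.78%) and 1.38% (1.28 to 1.48%) in the 2 untreated libraries. It was higher in regions of 240 nt or more, at 0.645% (0.495 to 0.827%) and 0.756% (0.631 to 0.899%) against 0.11% (0.0689 to 0.166%) and 0.198% (0.157 to 0.248%).

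The labelled cell line was checked against CDS densities. Of 7 genes that HEK293T cells are known to express, VIM stood highest, at 1710.1 to 2163 RPKM. Over the 3 libraries NEFL had 40.6 to 62.4 RPKM, NEFM 12.5 to 21.3, INA 11.8 to 17.9, LHX1 7.37 to 8.4 and SALL1 3.94 to 4.99. PAX2 was listed in Untreated B alone, at 1.28 RPKM. Of 6 markers of other cell types, PTPRC, CD3E, ALB and PECAM1 were listed in no library, COL1A1 stood at 7.98 to 10.7 RPKM, and EPCAM at 270.1 to 346 RPKM. COL1A1 thus overlapped LHX1, and EPCAM stood above every gene of the first list but VIM. These densities alone did not single out the cell line.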

How the data were processed

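Per the labels and the methods of the study, the authors removed duplicate reads by their molecular identifiers, discarded noncoding RNA reads, aligned the rest to hg38 with STAR (up to 200 positions, primary alignment kept) and assigned footprints of 28 to 35 nt by their A site to 1 transcript per gene, the one with the most 3′ stop codon, in GENCODE v30. CASAVA 1.8 stands in the submitters' processing notes. The deposited tables give raw counts, RPM (scaled to assigned reads), RPKM densities and ratios (RRTS and 3′UTR occupancy) made by the authors, who left out 18 nt at the start and 15 nt at the end of the CDS and 6 nt after the stop codon. Printed CDS lengths include the 33 nt, and 3′UTR lengths are printed as deposited.

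Whole reads were recovered from the RPM values and expected reads computed from CDS density (Python 3.11.15, numpy 2.4.6, pandas 2.3.3, scipy 1.17.1, matplotlib 3.10.9). The code for the pooled estimate was run on simulated reads with a fixed RRTS for each next base. That simulation had no spread between transcripts of a base, so it checked the calculation only. Members and lists were chosen with earlier results of these data known. Genes were named by rule: the 12 highest in G418 A with at least 30 readthrough reads, the 8 lowest with at least 20 expected, the 6 highest untreated means with at least 3 reads in each library, the 4 with the most reads, the extremes of each next base and gene list (at least 10 expected for lists) and the 3 longest regions. Gene models and sequences came from GENCODE v44. Alternatives changed the read, length and expected-read minimums, the handling of zeros, of transcripts without an in-frame stop codon and of the most-read transcripts, and the libraries used.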

Additional observations from a re-analysis of the deposited data

How the results depend on the processing

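The direction of G418 A over the untreated libraries held under every alternative run. The pooled RRTS in G418 A (20.1%) was 19.4% with at least 500 CDS reads, 19.2% with regions of at least 60 nt, 19.2% with transcripts without an in-frame stop codon kept, 18.4% without the top 1% of transcripts by readthrough reads, 19.7% with at least 10 expected reads and 22.4% over canonical regions, an alternative added after seeing the data. The untreated mean (1.12%) was 0.933% with at least 500 reads and 0.905% with regions of at least 60 nt, and the fold (17.8) 20.8 and 21.2. With either untreated library left out, the untreated mean was 1.01 to 1.24% and the fold 16.2 to 19.8. With no minimum of CDS reads the median in G418 A was 12.4%, and the share of members with reads (74.3%) was 61.5%, against 84.9% with at least 500 reads, 82.2% with at least 60 nt and 87% with at least 10 expected reads.

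The ratio of UAGC to UAGG in G418 A (1.42) stayed above 1 and was 1.55 with transcripts without an in-frame stop codon kept, 1.74 without the top 1%, 1.33 without zeros, 1.26 over canonical regions, and 1.35, 1.35, 1.59 and 1.07 from the shortest to the longest region class. The share of pairs with UAGC above UAGG was 0.683 in regions of 120 to under 240 nt and 0.516 in the longest. The untreated ratio of UAGC to UAGG turned in regions of 120 to under 240 nt, at 0.919. The ratio of the shortest to the longest regions (2.08) was 2.35 with at least 500 reads, 1.87 within CDSs under 600 nt and 2.31 within CDSs of 2000 nt or more. Its untreated mean (3.31) was 7.85 with at least 500 reads and 8.8 within CDSs of 600 to under 1200 nt, and 2.22 and 4.41 in Untreated B and Untreated A alone.

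The ratio of CDSs under 600 nt to those of 1200 to under 2000 nt (0.683) turned direction in 1 region class. It was 0.592 with at least 500 reads, 0.736 without the top 1%, 0.744 over canonical regions, 0.764, 0.439 and 0.867 within the shortest, second and longest region classes, and turned to 1.09 within 120 to under 240 nt. Its untreated mean turned to 1.58 and 1.02 in regions of 120 to under 240 nt and 240 nt or more. The cause was not tested. The density after the next stop codon (0.955%) was 1.15% with no minimum of reads, 0.782% with regions of at least 60 nt and 0.924% with at least 10 expected reads. All 55 named transcripts stayed within their counting interval with CDS counts as deposited. In G418 A the deposited count was 1 read lower for 72 of 9370 transcripts, so this alternative could hardly move a value. Keeping transcripts without an in-frame stop codon gives no density after that stop codon, and a minimum of 60 nt no shortest region class.

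No paired analysis was possible because G418 A is the single treated library and shares only 1 replicate letter with the untreated ones. Depth limits single transcripts: the median number of expected reads per member was 13.6, 23.2 and 19.5 in Untreated A, Untreated B and G418 A, so that a member with the median number of expected reads and no readthrough read in untreated cells could not be told from one near the pooled untreated RRTS.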

Other observations

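3′UTRs with more stop codons in the readthrough frame went with slightly higher RRTS. Across the 567 members with at least 20 expected reads in G418 A, Spearman's rho with RRTS there was 0.16 for the number of in-frame stop codons and 0.106 for 3′UTR length, all points sharing 1 library. The median number of such stop codons was 9.5, 9, 11 and 21 from the lowest to the highest quartile of RRTS, beside the fall in GC content of the first 60 nt from 56.7 to 46.7%, whose part was not tested. A at position 5, counting from the U of UAG, was found in 14.8% of the lowest and 33.6% of the highest quartile, and A at position 8 in 21.3% and 30.3%.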
